A study of Homo sapiens with 6 samples.

Results

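Ribosomes are assembled in the nucleolus by a large set of accessory proteins, and 40 genes for such nucleolar ribosome biogenesis factors were described here. They were chosen by symbol, and all 40 had a row among the 17104 genes of the deposited count table, so none was absent and none was lost to a filter on low counts. The counts come from RNA-seq of HBMEC, cells labelled as a human brain microvascular endothelial line. The 6 libraries fall into 3 titled CON, taken as control, and 3 titled OGD, grouped as OGD/R. OGD/R is a cell model of ischaemia in which the supply of glucose and oxygen is cut and later restored. The length of each phase and the culture of the controls are not stated in the labels. Nor do they say whether replicates were separate cultures, so p-values measure the spread between these libraries, which may be technical. The library kit named, NEBNext Ultra RNA, does not mark the strand, so reads of genes that overlap on opposite strands cannot be told apart.

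Total counts were 31048662 to 34484647 per library, and single members had 26 to 31898 counts in a library. Of 18 endothelial marker genes fixed for the check of the cell type, 8 had a value, and PECAM1, VWF and KDR were among the 10 without one. The 8 measured endothelial markers summed to 291 to 307 CPM (counts scaled to library size) in control and 294 to 307 CPM after OGD/R. Single endothelial markers moved within that sum: CDH5 rose (0.81 on the log2 scale), and MMRN2 (−1.75), ROBO4 (−0.75) and SOX18 (−0.33) fell. MMRN2 was near the floor, at 0.717 CPM in control and 0.207 CPM after OGD/R. Over all genes, 10.2% rose and 9.48% fell at an adjusted p under 0.05 in edgeR. The 9 measured of 16 epithelial markers, mostly keratins by level, summed to 2508 to 2733 CPM in control and 3071 to 3124 CPM after OGD/R, and 4 of them rose. The epithelial sum was thus above the endothelial sum in every library and moved with the group, and its part in the results on the 40 genes was not tested. In bulk RNA, fewer cells with a transcript and less transcript per cell cannot be told apart, and CPM gives shares of the measured RNA, not amounts per cell.

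Ribosome production starts when RNA polymerase I (Pol I) transcribes a long precursor of the ribosomal RNAs from the rDNA repeats. Small nucleolar ribonucleoproteins (snoRNPs) then modify the precursor: box C/D particles place methyl groups on riboses, and box H/ACA particles turn uridines into pseudouridines. A large complex on the growing transcript, the small subunit processome, folds and cuts the part that becomes the small subunit, while other factors and helicases build the large subunit. The pathway is among the most costly of a growing cell, and growth signals such as MYC and the kinase MTOR are known to drive it.

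The nucleolar factors changed little and in both directions after OGD/R. Of the 40 members, 9 rose and 5 fell at an adjusted p under 0.05 (edgeR quasi-likelihood test, Benjamini-Hochberg adjustment over all genes), against 10.2% of all genes higher, 9.48% lower and 19.7% in either direction. No member reached a 2-fold change. The 9 risers were 9.04% to 31.6% higher, and the changes of the 5 that fell ran from −21.5% (NOB1) to −10.6% (POLR1A). The number that fell depended on single libraries and on scaling: it was 2 without OGD/R replicate 2, 3 without OGD/R replicate 3 or control replicate 2, and 8 with total-count scaling. The median log2 fold change (OGD/R over control) was 0.02 over the members, or 0.0751 without control replicate 2, and −0.00457 over all genes. The genes that rose were EBNA1BP2, MRTO4 and PES1 of large subunit assembly, FBL, NOP56 and NHP2 of the snoRNPs, and NPM1, NCL and GNL3, whose proteins have several nucleolar roles. The genes that fell were NOB1, HEATR1 and UTP20 of the small subunit, RRS1 of the large subunit and POLR1A of Pol I.

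The share of members called, 35%, has to be read against their level. Of 9941 genes whose mean level was 10 CPM or more, 30.2% were called, and 38 of the 40 members lie at that level, with all 14 calls among them. At that level 16.2% of genes were higher and 14% lower, and the counts by role are to be read against these shares. The 3 OGD/R libraries lay wholly above or wholly below the 3 control libraries in 24 members, 13 higher and 11 lower. This was the case for 33% of all genes, 16.4% higher and 16.6% lower, and for 43.8% of those at 10 CPM or more. Together the 40 genes took 0.460% to 0.488% of the scaled counts in the control libraries and 0.489% to 0.498% after OGD/R. Most of this rise lay in NPM1 and NCL. The mean sum was 4701 CPM in control and 4946 CPM after OGD/R, with NPM1 at 800 and 930 CPM and NCL at 575 and 641 CPM. In the sum, control and OGD/R libraries lay close together. Control replicate 2 was the highest of its group, at 0.488%, just under the lowest OGD/R library.

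**Figure D1:**
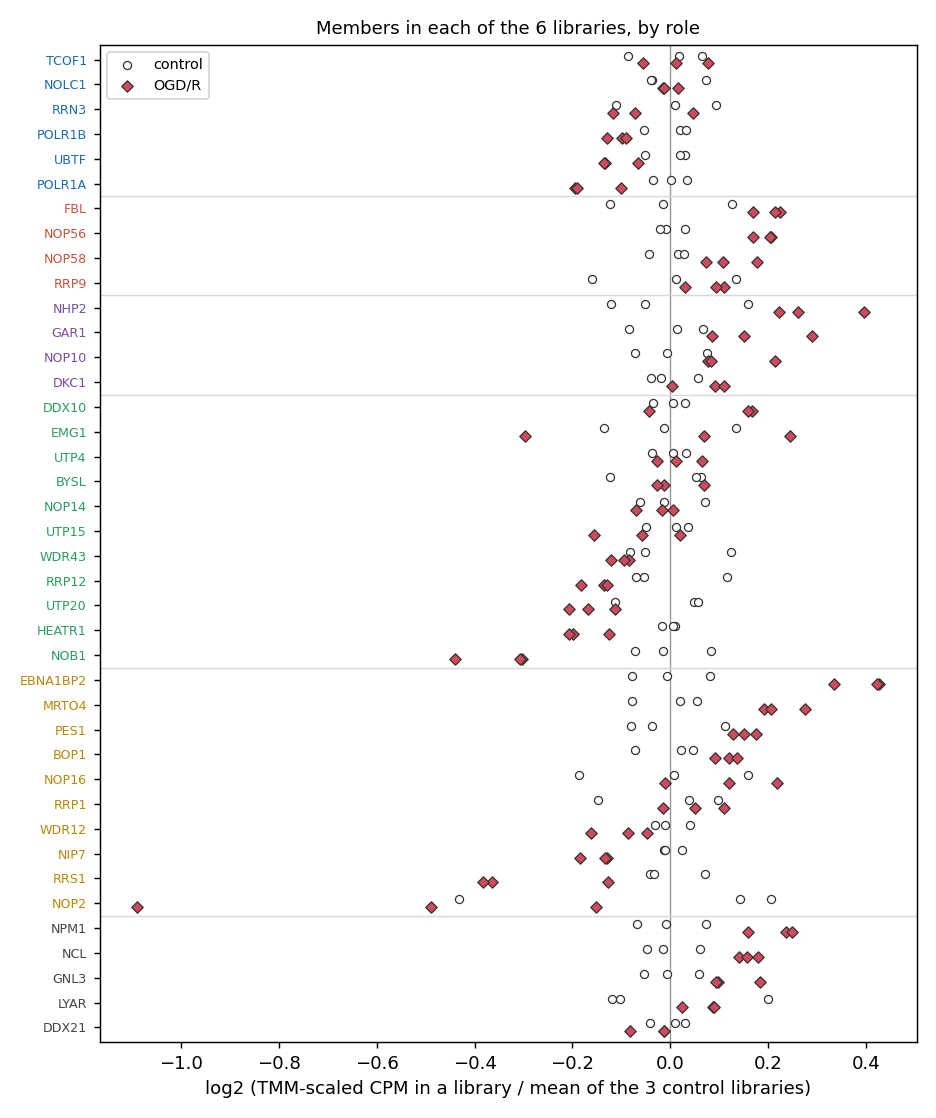
Each point is a member's TMM-scaled CPM in 1 library, as log2 of its ratio to the mean of the 3 control libraries (x axis), for control (open circles) and OGD/R (red diamonds), with members grouped by role (colour of the name, in the order Pol I, box C/D, box H/ACA, small subunit, large subunit, multifunctional). EBNA1BP2 lies farthest right and NOB1 and RRS1 lie left of their control libraries, while NOP2, at under 2 CPM, is the most scattered.

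Promoter sequence was not used in the choice of members. The motif CACGTG, an E-box that MYC with its partner MAX and other factors of that family are known to bind, was searched in RefSeq promoter windows (build GRCh38.p14) that run from 250 bases before to 50 bases after the start of a transcript. It reads the same on both strands. A window was found for 34 members, and 16 of these (47.1%) held the motif, against 12.1% of the 11475 measured genes that were not members and had a window. Among the members that rose, 5 of 9 held it, and among those that fell, 1 of 4. Of the 21 with a window that did not pass, 10 held it, so the motif was spread over called and uncalled members. In most of them it lay within 50 bases of the start. The 6 called members with the motif are shown here because they put the same motif beside unlike fold changes. Each line gives 30 bases around the motif, 5′ to 3′ on the strand of the gene, with the motif in capitals. Coordinates are those of the 30 bases, and positions from the transcript start are those of the first base of the motif.
EBNA1BP2: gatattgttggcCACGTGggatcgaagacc
FBL: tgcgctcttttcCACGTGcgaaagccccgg
GNL3: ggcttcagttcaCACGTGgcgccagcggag
MRTO4: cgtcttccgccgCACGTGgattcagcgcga
PES1: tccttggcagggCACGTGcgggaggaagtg
UTP20: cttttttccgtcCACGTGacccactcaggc
The EBNA1BP2 motif (in chr1:43172790-43172819, minus strand) starts at −237 from the transcript start of its window, and that gene has another CACGTG at base 43 of a further annotated start. The motifs of FBL (in chr19:39846356-39846385, minus strand) and GNL3 (in chr3:52686026-52686055, plus strand) start at base 7 of the transcript. The MRTO4 motif (in chr1:19251807-19251836, plus strand) starts at base 15 and the PES1 motif (in chr22:30591880-30591909, minus strand) at base 14. The UTP20 motif (in chr12:101280083-101280112, plus strand) starts 10 bases before the transcript. The first 5 genes rose and UTP20 fell. A match of letters is a description and does not show that a factor was bound.

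Per kilobase of the longest annotated transcript, the members covered a wide range of levels. NPM1, a histone and ribosome chaperone of the nucleolus, was highest with 455 CPM per kb in control and 529 after OGD/R. NCL, or nucleolin, an RNA-binding protein of the precursor RNA, followed with 143 and 159 CPM per kb, and FBL with 102 and 117. At the other end stood DDX10 (4.71 and 5.04 CPM per kb), EMG1 (1.15 and 1.17) and NOP2 (0.544 and 0.377). The lowest pair had unusual neighbours in the annotation. Other genes overlap 54.4% of the NOP2 exon bases and 53.1% of those of EMG1. How reads in shared exons were counted is not stated, so the level of both genes is uncertain.

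**Figure D2:**
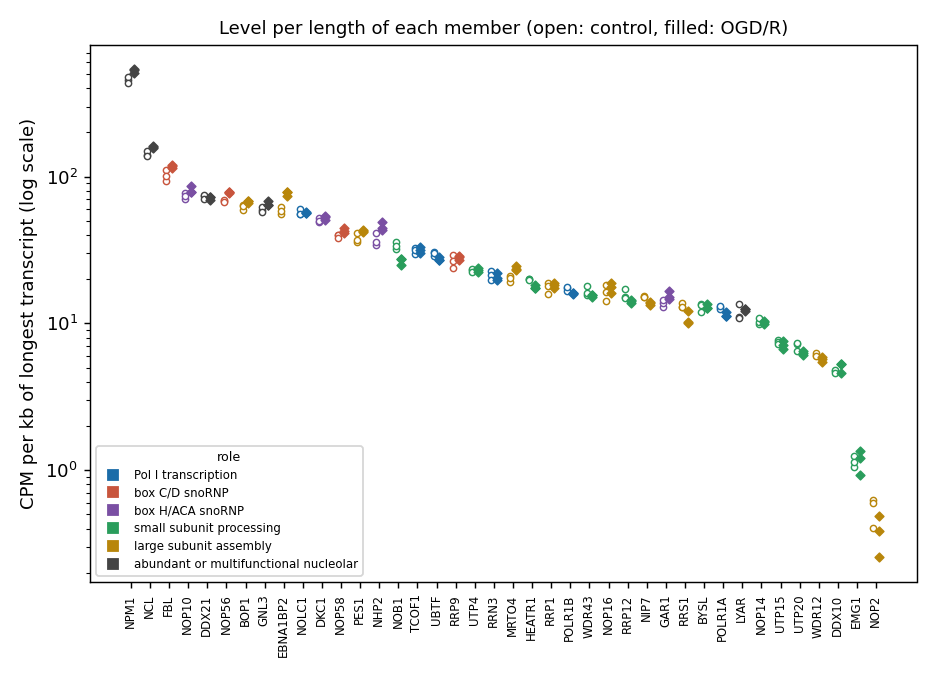
CPM per kb of longest transcript (y axis, log scale) of each member in each library, ordered by the control level, open circles for control and filled diamonds for OGD/R, coloured by role. NPM1 is the highest at 455 CPM per kb in control and NOP2 the lowest at 0.544, and for most genes the groups sit close together beside this range.

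Among the 6 members that serve Pol I transcription, POLR1A fell and the other 5 did not pass. POLR1A (ENSG00000068654) encodes the largest subunit of the polymerase. Its levels were 164, 160 and 168 CPM in control replicates 1, 2 and 3, and 143, 144 and 153 CPM after OGD/R. All 3 OGD/R libraries lay below the control libraries (log2 fold change −0.16 ± 0.04 SE, adjusted p = 0.00621 in edgeR). POLR1B, the other catalytic subunit, was at −0.11 (adjusted p = 0.149), and UBTF, which binds the rDNA promoter and keeps it open, also at −0.11 (adjusted p = 0.0742). In both of these the groups did not overlap. RRN3, which brings the polymerase to the promoter, was at −0.05 and TCOF1, the nucleolar scaffold treacle, at 0.01. NOLC1, a phosphoprotein that binds snoRNPs and Pol I, was the member of this set with the highest level per kb. It was at 221, 239 and 221 CPM in control and 224, 225 and 229 CPM after OGD/R, with overlapping groups and a fold change of −0.00429. POLR1A has the longest transcript of all members, at 12749 nucleotides, and its call ended after correcting each library for its trend with transcript length and GC content (0.00038, adjusted p = 0.996), without control replicate 3 (−0.14, adjusted p = 0.0567) and without OGD/R replicate 2 (−0.15, adjusted p = 0.0553).

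Of the 8 members that encode snoRNP proteins, 7 core proteins and the U3 protein RRP9, 3 rose, against 16.2% of genes at 10 CPM or more. The fold changes of the 8 ran from 0.07 to 0.29 with a median of 0.15. SNU13, a further box C/D core protein that is not a member, was at 0.10 (adjusted p = 0.219). FBL (ENSG00000105202), fibrillarin, the methyltransferase of the box C/D particle, stood at 131, 156 and 141 CPM in control and at 167, 166 and 161 CPM after OGD/R. The groups did not overlap (0.20 ± 0.05 SE, edgeR adjusted p = 0.00146). NOP56 (ENSG00000101361), a scaffold of the same particle, stood at 203, 208 and 201 CPM in control and at 229, 235 and 235 CPM after OGD/R. Its libraries were tightly grouped and well apart (0.19 ± 0.04 SE, edgeR adjusted p = 0.000407). Its partner NOP58 was at 0.12 (adjusted p = 0.0957) and RRP9, of the U3 particle that guides the cutting of the precursor, at 0.08 (adjusted p = 0.492).

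In the box H/ACA particle the small protein NHP2 (ENSG00000145912) rose. It stood at 29.6, 36.0 and 31.1 CPM in control and at 38.6, 42.4 and 37.6 CPM after OGD/R. Control replicate 2 was the highest of its group but stayed below every OGD/R library (0.29 ± 0.07 SE, edgeR adjusted p = 0.00272), and the call ended without OGD/R replicate 2 (0.24, adjusted p = 0.0502). RMND5B, on the opposite strand, overlaps 27.4% of its exon bases. NOP10, the smallest subunit and the highest of this set per kb, was at 39.0, 43.2 and 40.9 CPM in control and at 43.3, 47.6 and 43.5 CPM after OGD/R. The groups only just separated and the difference did not pass (0.13 ± 0.07 SE, edgeR adjusted p = 0.198). GAR1 was at 0.18 (adjusted p = 0.201) and DKC1, dyskerin, the pseudouridine synthase itself, at 0.07 (adjusted p = 0.309). These 8 transcripts are short, 554 to 3079 nucleotides. After the length and GC correction their median was 0.03, NOP56 alone still passed (0.18, adjusted p = 0.000125), FBL (0.10, adjusted p = 0.0738) and NHP2 (0.13, adjusted p = 0.168) did not, and NOP10 turned to −0.10.

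Of the 11 members that process the small subunit precursor, NOB1, HEATR1 and UTP20 fell and 8 did not pass, with a median of −0.06. Of genes at 10 CPM or more, 14% fell. NOB1 (ENSG00000141101) is the endonuclease that makes the last cut at the end of the small subunit RNA, after export to the cytoplasm. It stood at 55.8, 62.2 and 58.1 CPM in control and at 43.3, 47.6 and 47.4 CPM after OGD/R. Every OGD/R library lay well below every control library, and this was the largest fall among the called members (−0.35 ± 0.06 SE, edgeR adjusted p = 2.64e-05). NOB1 has the highest level per kb of this set. Its transcript is short, at 1734 nucleotides, and after the length and GC correction the value was −0.43. An antisense gene overlaps 20.3% of its exon bases.

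HEATR1 (ENSG00000119285) belongs to the part of the processome that also supports Pol I transcription. It stood at 170, 170 and 167 CPM in control and at 147, 147 and 155 CPM after OGD/R, without overlap (−0.18 ± 0.04 SE, edgeR adjusted p = 0.00220). Other genes overlap 23.2% of its exon bases. UTP20 (ENSG00000120800), a very large scaffold of the processome, had 65.6, 66.1 and 58.7 CPM in control and 58.7, 56.5 and 55.0 CPM after OGD/R. The groups touched, with control replicate 3 at the level of OGD/R replicate 1 (−0.16 ± 0.06 SE, edgeR adjusted p = 0.0450). With transcripts of 8447 and 9025 nucleotides, both did not pass after the length and GC correction (HEATR1 −0.10, adjusted p = 0.0549, and UTP20 −0.07, adjusted p = 0.390), and UTP20 also lost its call with upper-quartile scaling (adjusted p = 0.0564), with limma-voom (adjusted p = 0.0570) and without control replicate 1, control replicate 2, OGD/R replicate 2 or OGD/R replicate 3 (adjusted p = 0.125 to 0.171).

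The other small subunit factors stayed within 0.15 of no change. RRP12, which serves late maturation and export, was at −0.15 (adjusted p = 0.0575) with groups that did not overlap. WDR43 and UTP15, partners of HEATR1 in the processome, were at −0.10 and −0.06, and UTP4 of the same set was at 0.02. The scaffold NOP14 was at −0.03, the assembly factor BYSL at 0.01, the helicase DDX10 at 0.10 and the RNA methyltransferase EMG1 at 0.03 ± 0.16 SE. WDR43 passed after the length and GC correction (−0.15, adjusted p = 0.0402).

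Large subunit assembly factors went both ways. EBNA1BP2 (ENSG00000117395), a nucleolar assembly factor of the large subunit, had the largest rise of all members. It stood at 83.3, 93.1 and 87.5 CPM in control and at 111, 118 and 118 CPM after OGD/R. The gap between the groups was wider than the spread within either (0.40 ± 0.05 SE, edgeR adjusted p = 2.85e-08), and the value was 0.28 after the length and GC correction. Other genes, chiefly CFAP57 on the opposite strand, overlap 20.5% of its exon bases.

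MRTO4 (ENSG00000053372) occupies the site on the precursor that a ribosomal stalk protein later takes. It rose from 44.3, 48.6 and 47.4 CPM in control to 56.6, 53.4 and 53.9 CPM after OGD/R, without overlap (0.22 ± 0.06 SE, edgeR adjusted p = 0.00600). RRS1 (ENSG00000179041), which helps to place the 5S ribosomal RNA particle, fell. It stood at 21.9, 23.7 and 22.0 CPM in control and at 20.7, 17.5 and 17.3 CPM after OGD/R. OGD/R replicate 1 came close to the control libraries (−0.29 ± 0.09 SE, edgeR adjusted p = 0.0184), and the call ended without control replicate 2 (adjusted p = 0.0747), OGD/R replicate 2 (adjusted p = 0.102) or OGD/R replicate 3 (adjusted p = 0.108).

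PES1, BOP1 and WDR12 form 1 complex, PeBoW, which is needed to process the large subunit RNA, and PES1 alone of the 3 passed. PES1 (ENSG00000100029) rose from 99.7, 114 and 103 CPM in control to 119, 115 and 117 CPM after OGD/R. Control replicate 2 came within reach of the OGD/R libraries (0.15 ± 0.05 SE, edgeR adjusted p = 0.0228). BOP1, the large subunit member with the highest level per kb in control (62.4 CPM per kb, against 58.5 for EBNA1BP2, which was higher after OGD/R, at 77.0 against 67.6), was at 137, 149 and 146 CPM in control and at 156, 158 and 153 CPM after OGD/R. Its groups did not overlap and the difference did not pass (0.12 ± 0.04 SE, edgeR adjusted p = 0.0608), but it did after the length and GC correction (0.13, adjusted p = 0.00769). BOP1 also passed with upper-quartile scaling, with DESeq2, with a filter of 1 CPM and without control replicate 2 (adjusted p = 0.0256 to 0.04995). WDR12 was at −0.10 (adjusted p = 0.301). The PES1 call ended when either control replicate 1 or 3 or any of the OGD/R libraries was left out (adjusted p = 0.0559 to 0.129) and with total-count scaling (0.12, adjusted p = 0.0741).

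Of the other large subunit members, NIP7, which acts in precursor processing, was at −0.15 (adjusted p = 0.0628) with groups that did not overlap. NOP16 was at 0.11 and RRP1 at 0.05. NOP2, an RNA methyltransferase, had the largest negative value of all members and the largest error, −0.53 ± 0.32 SE (adjusted p = 0.271). Its libraries ran from 1.23 to 1.91 CPM in control and from 0.775 to 1.49 CPM after OGD/R, and the groups overlapped.

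Of the 5 members with several nucleolar roles, NPM1, NCL and GNL3 rose and DDX21 and LYAR did not pass. The share of genes that rose was 16.2% at 10 CPM or more. NPM1 (ENSG00000181163) stood at 795, 841 and 764 CPM in control and at 894, 944 and 951 CPM after OGD/R, without overlap (0.22 ± 0.04 SE, edgeR adjusted p = 7.55e-05). The annotation names 45 NPM1 pseudogenes, and reads can be shared with them. NCL (ENSG00000115053) stood at 569, 599 and 556 CPM in control and at 651, 633 and 641 CPM after OGD/R, again without overlap (0.16 ± 0.04 SE, edgeR adjusted p = 0.00268). After the length and GC correction NCL was at 0.16, while NPM1 was at 0.09 (adjusted p = 0.0493).

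GNL3 (ENSG00000163938), or nucleostemin, a GTPase of proliferating cells, rose least among the called members. It had 126, 132 and 122 CPM in control and 135, 144 and 135 CPM after OGD/R (0.12 ± 0.05 SE, edgeR adjusted p = 0.0481), and its value was 0.01, which did not pass, after the length and GC correction. The call also ended with total-count scaling, with limma-voom, with the replicate number as a block (adjusted p = 0.0536) and when any library but control replicate 2 was left out (adjusted p = 0.0586 to 0.265). The helicase DDX21, which acts in both transcription and processing, was at −0.04 (adjusted p = 0.616) despite 352 CPM in control. LYAR, a nucleolar zinc finger protein, was at 0.07 (adjusted p = 0.697).

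**Figure D3:**
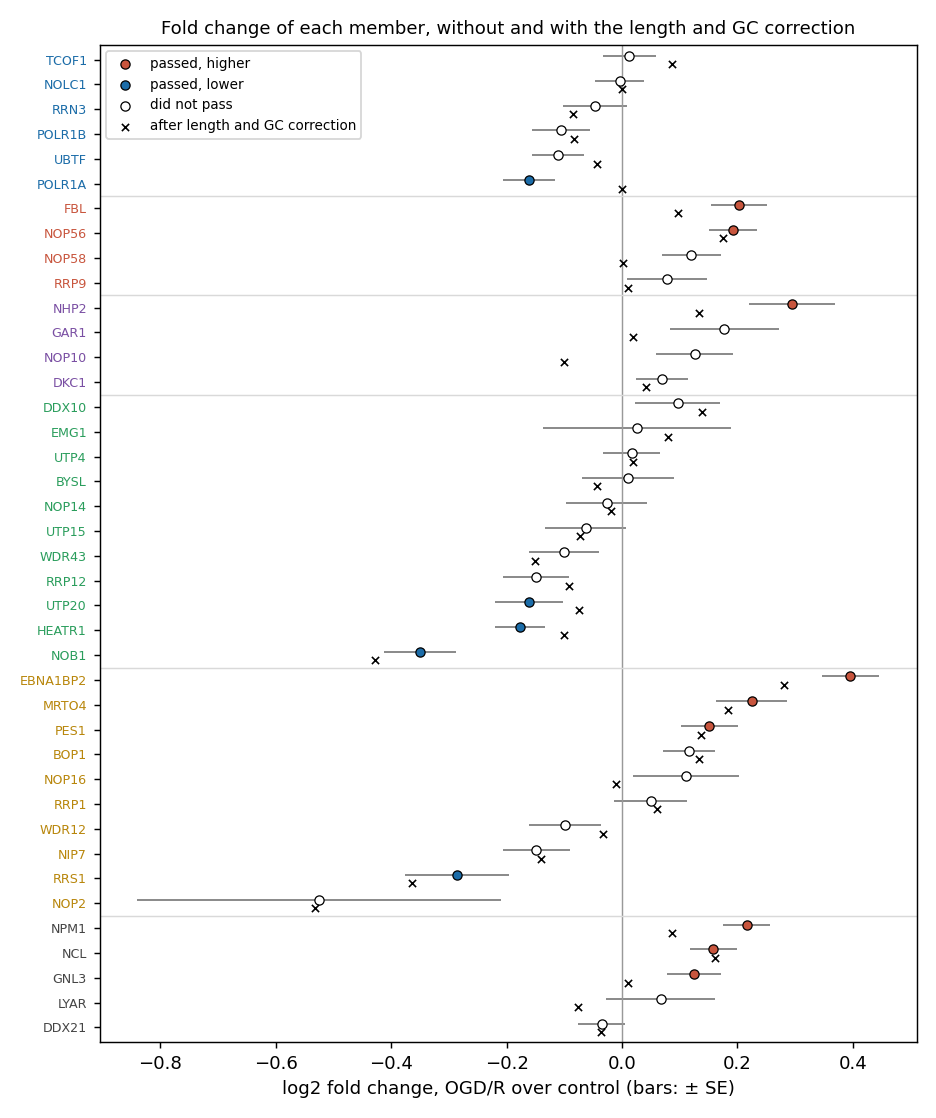
Log2 fold change, OGD/R over control, of each member with its standard error (circles and bars, filled where the adjusted p was under 0.05) and the value after the length and GC correction (crosses), by role. The filled red circles end at EBNA1BP2 (0.40) and the filled blue ones at NOB1 (−0.35), and the crosses of POLR1A, NOP58 and GNL3 lie near 0.

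The direction of the members varied with the length of their transcripts. Of the 20 members with a longest transcript of up to the median of 3058 nucleotides, 8 rose and 2 fell, with a median log2 fold change of 0.12. Of the 20 longer ones, 1 rose (NCL) and 3 fell, with a median of −0.06. Spearman's rho between fold change and length was −0.58 over the 40 members, which share the same 6 libraries, and −0.36 over 10848 well-expressed protein-coding genes. Over those genes length moved with the groups: the deviation of each library had a rho with length of 0.04 to 0.44 in control and of −0.33 to −0.23 after OGD/R. After the correction the rho over the members was −0.14, and 7 members were higher and 3 lower, against 10.3% and 8.91% of all genes (19.2% in either direction). Without the correction 30.2% of genes at 10 CPM or more were called. The corrected share at that level was not computed, so the corrected counts are not set against genes of like level. The part of length in the calls was measured only by this correction. Of the 14 called members, 8 passed with and without the correction in the same direction: EBNA1BP2, MRTO4, PES1, NOP56, NPM1 and NCL were higher, and NOB1 and RRS1 were lower. Between these fits, BOP1 and WDR43 passed only in the corrected one, while BOP1 also passed in other alternatives.

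**Figure D4:**
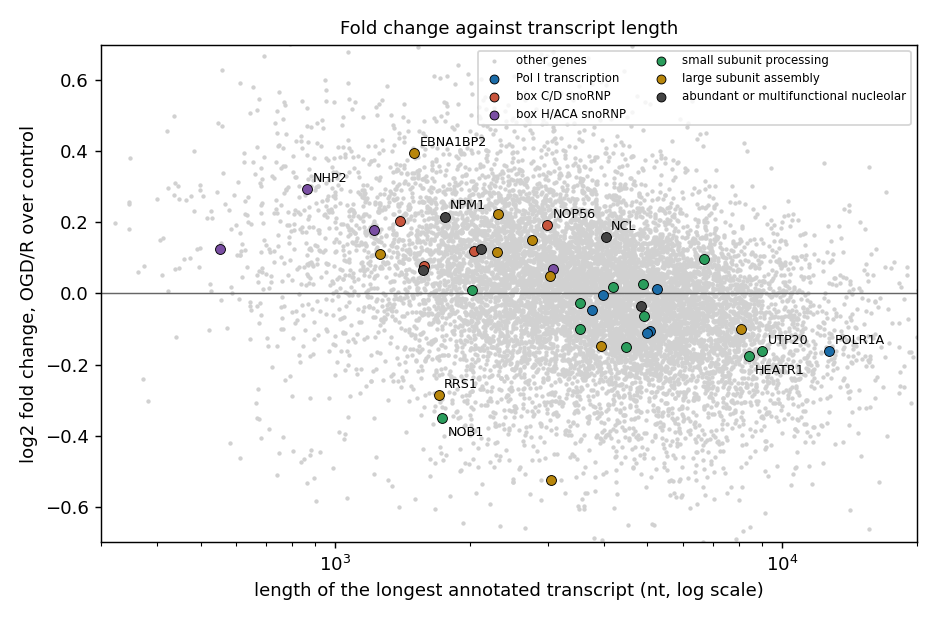
Log2 fold change (y axis, OGD/R over control) against the length of the longest annotated transcript (x axis, log scale), members coloured by role over other genes of sufficient level in grey. The short members NHP2 and EBNA1BP2 lie high and the long members HEATR1, UTP20 and POLR1A low, while NOB1 and RRS1 are short and low.

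Other genes of the same pathway, which were not members, were counted in the same way. In 5 further lists of biogenesis factors (Pol I, small subunit, large subunit, RNA exosome and snoRNP assembly), 24 of 132 measured genes rose and 10 fell, with a median of 0.04. Over all genes 10.2% rose and 9.48% fell, and at 10 CPM or more 16.2% and 14%. After the length and GC correction the counts were 18 and 13. Among 53 other large subunit factors, 10 rose and 7 fell. NSA2 (0.33) and FTSJ3 (0.32), both needed for large subunit precursors, rose, while NLE1 (−0.33) and the giant ATPase MDN1 (−0.22), which work together in releasing factors from the precursor, fell. MDN1 did not pass after the correction (−0.07, adjusted p = 0.225).

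Each list here stands beside shares of 16.2% higher and 14% lower among genes at 10 CPM or more. Among 43 other small subunit factors, 7 rose and 2 fell. The number that rose was 2 with total-count scaling, 3 without control replicate 1 or OGD/R replicate 2, and 4 without control replicate 3, OGD/R replicate 1 or OGD/R replicate 3. The number that fell was 1 without control replicate 2, OGD/R replicate 1 or OGD/R replicate 3, each of which ended the call of ESF1. RRP36 (0.27) and the processome scaffold protein TBL3 (0.20) rose, and UTP25 (−0.21) and ESF1 (−0.19) fell. RRP36 and UTP25 did not pass after the correction (adjusted p = 0.0855 and 0.0830). In the exosome list, whose core degrades and trims precursor RNA, 3 of 15 rose. Among them were the core subunit EXOSC9 (0.23) and XRN2 (0.16), a listed nuclease that is not an exosome subunit. All 3 calls ended without control replicate 3 (adjusted p = 0.0514 for XRN2 and 0.127 for EXOSC9). The number that rose was 1 without OGD/R replicate 3 and 5 without control replicate 2. After the correction 2 were higher and 1 was lower, EXOSC5 (−0.34, adjusted p = 0.00229). In the snoRNP assembly list, 3 of 10 rose, led by the ATPase RUVBL2 (0.26) and its adaptor PIH1D1 (0.25), although PIH1D1 did not pass after the correction (0.13, adjusted p = 0.0856). Among 11 measured other Pol I genes, the termination factor TTF1 rose (0.25) and the subunit POLR1E fell (−0.15), and neither call was stable. TTF1 did not pass after the correction (adjusted p = 0.0721) or without control replicate 1, OGD/R replicate 1 or OGD/R replicate 3 (adjusted p = 0.0633 to 0.0689). POLR1E did not pass without control replicate 1, control replicate 3, OGD/R replicate 2 or OGD/R replicate 3 (adjusted p = 0.0905 to 0.171).

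Of 21 regulators that set the rate of ribosome production, 2 rose and 9 fell, with a median of −0.12, which was 0.00886 after the length and GC correction (1 higher and 5 lower). The shares over all genes were 10.2% higher and 9.48% lower, and at 10 CPM or more 16.2% and 14%. The list holds genes that promote ribosome production and genes that restrain it, and genes of both kinds fell. Its counts and median therefore give no direction for the pathway. MYC, a transcription factor known to activate many biogenesis genes, fell from 68.9 ± 2.99 to 61.0 ± 0.816 CPM (mean ± SD, n = 3 each; −0.18 ± 0.06 SE, edgeR adjusted p = 0.0191) with groups that did not overlap, and the call ended without control replicate 2 or 3 or OGD/R replicate 1 or 2 (adjusted p = 0.0560 to 0.105). MXD3, a MAX-binding relative, rose (0.46), as did RHEB, the activator of MTOR (0.17, and 0.09 with an adjusted p of 0.141 after the correction). The other listed relatives of MXD3 did not rise: MXD1 (−0.53), MNT (−0.24) and MXD4 (−0.16) fell, and MXI1 (0.05) did not pass. MNT and MXD4 did not pass after the correction. DDIT4, an MTOR inhibitor (−0.35), and EIF4EBP1, a translation repressor under MTOR (−0.39), fell. Of 9 measured genes listed under nucleolar stress and p53, the ribosomal protein genes RPL23 (0.28) and RPL11 (0.18) rose and 7 did not pass. Among the 7 was RRAGC (0.06), which is not an established link between nucleolar stress and p53. RPL11 was at 0.06 after the correction (adjusted p = 0.218). RPL5, which did not pass without the correction (0.11, adjusted p = 0.0664), was lower with it (−0.10, adjusted p = 0.0255). The corrected counts of this list were 1 higher and 1 lower. CDKN1A, the classical p53 target, was at 0.04 and MDM2, the p53 ligase, at −0.07.

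**Figure D5:**
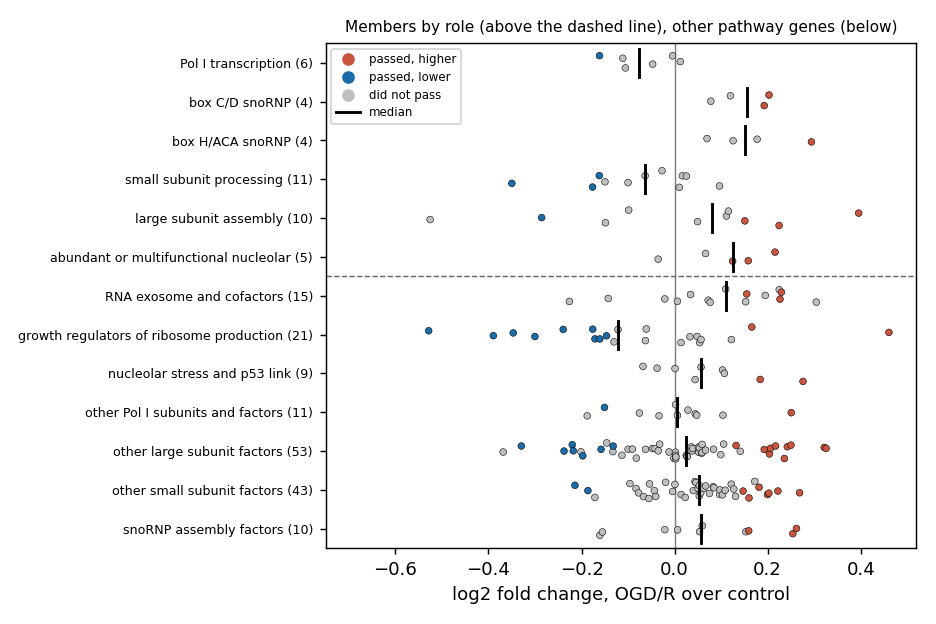
Log2 fold changes (x axis, OGD/R over control) of the members by role, above the dashed line, and of the other pathway lists below it, with the number of genes in brackets, red where a gene rose, blue where it fell, grey where it did not pass, and a black bar at each median. The medians of the snoRNP groups are 0.16 and 0.15 and that of Pol I is −0.08. The median of the growth regulators, which hold both activators and repressors, is −0.12.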

How the data were processed

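RNA-seq counts of 6 libraries (3 control, 3 OGD/R, grouped by sample title) were used as deposited. The authors deposited raw read counts for each Ensembl gene ID. The submitters' processing notes name featureCounts, HISAT2, Trimmomatic, SAMtools and edgeR, and the genome build GRCm38, which is a mouse build although the IDs are human. Settings for strand and multi-mapped reads are not stated.

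IDs were matched to symbols (17093 of 17104). After TMM scaling, the test was that of edgeR 4.0.16 under R 4.3.3 (robust quasi-likelihood test, two-sided, group only, threshold 0.05); filterByExpr, with a minimum count of 10, removed 0 genes. Each standard error is the absolute fold change over the root of F. Levels are CPM after TMM. The coefficient of variation between libraries beyond counting error, as edgeR estimates it, was 6.26%. The fits were tested on simulated data with independent libraries and the same dispersion for every gene. That setting is simpler than these data, so the test does not bear on the calls here.

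Alternatives were DESeq2 1.42.0, limma-voom 3.58.1, scaling by RLE, upper quartile or total count, no filter, a filter of 1 CPM in 3 libraries, a replicate block, leaving out mitochondrially encoded genes or each library, and a correction in which a smooth curve (mgcv 1.9.3) was subtracted per library, fitted on length and GC content of the longest GENCODE 29 transcript, known for 96.6% of genes. Libraries of a group differed by more than sampling noise (chi-square per degree of freedom 4.10 to 7.53), so all 6 were kept. The members and lists were chosen with earlier results of these data known. All 40 members are named; values in every library are given for the 12 with the smallest p and the highest of each role per kb, from each other list the 2 rising and 2 falling genes with the smallest p, and MYC by name. UTP20, GNL3, NOP2, SNU13, CDKN1A, MDM2 and RPL5 were given in more detail, or added, after their values were seen. EXOSC5, RRAGC, MXD1, MNT, MXD4 and MXI1 were also added then. So was the background at 10 CPM. Protein sequences were not used here.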

Additional observations from a re-analysis of the deposited data

How the results depend on the processing

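Over 17 alternatives, 6 of the 14 called members (EBNA1BP2, MRTO4, NOP56, NPM1, NCL and NOB1) passed in the same direction in each. Among members not called, BOP1 passed in 6 of the alternatives, NIP7 and RRP12 in 3 each, and UBTF and WDR43 in 2 each. The number of higher members was 6 to 10 when 1 library was left out, and 7 with total-count scaling or the length and GC correction, from 9. The number of lower members, 5, was 8 with total-count scaling, 3 with the length and GC correction, and 2 to 6 when 1 library was left out: 2 without OGD/R replicate 2, and 3 without OGD/R replicate 3 or control replicate 2. The median over members, 0.021, was −0.00630 to 0.0751 when 1 library was left out, with the highest value without control replicate 2. With the replicate block, 8 members were higher and 5 lower, with a median of 0.017. Equal numbers correlated at −0.000874, 0.0827 and −0.00768, and not every library correlated best with its own number. Such small correlations cannot show whether libraries of equal number shared a culture or day, and the labels do not say. The filterByExpr step removed 0 genes, so the setting without it shows nothing.

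Signs turned mostly for members near no change. With total-count scaling TCOF1 was at −0.0175, UTP4 at −0.0135, EMG1 at −0.00408 and BYSL at −0.0198; with upper-quartile scaling NOLC1 was at 0.00318. With the length and GC correction POLR1A was at 0.00038, NOLC1 at 0.000486, NOP10 at −0.101, BYSL at −0.0440, NOP16 at −0.0104 and LYAR at −0.0763, and with that correction and the replicate block NOLC1 was at 0.00172, NOP10 at −0.102, BYSL at −0.0437, NOP16 at −0.00789 and LYAR at −0.0715. With 1 library left out, the values that changed sign ran from −0.0973 to 0.00415 for RRN3, from −0.0266 to 0.0488 for TCOF1, from −0.0215 to 0.0374 for NOLC1, from −0.00788 to 0.0386 for UTP4, from −0.0542 to 0.0121 for NOP14, from −0.0989 to 0.159 for EMG1, from −0.0455 to 0.0461 for BYSL and from −0.0167 to 0.104 for RRP1. The lowest member counts, 26 in a library for NOP2, limit its precision most. The cause of these shifts was not tested.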
